A study of Mus musculus with 4 samples.

Results

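The ILC2 lineage transcription factors described here are 10 genes, Gata3, Rora, Id2, Tcf7, Bcl11b, Ets1, Zbtb16, Tox, Gfi1, and Maf, found by symbol among the 27179 genes of a deposited RNA-Seq count table. Group 2 innate lymphoid cells (ILC2s) were sorted as CD45.2+Lin-CD127+KLRG1+ cells from the large intestine of WT C57BL/6 mice and cultured for 5 days in a mix of 4 cytokines (IL-33, IL-25, IL-7, and IL-2, each at 10 ng/mL). They were then given vehicle (2 libraries, also called Ctrl) or 100 μM deoxycholic acid (DCA, a bile acid made by gut bacteria; 2 libraries), for 16 hours by the deposited design text and for 24 hours by the paper's methods. All 4 libraries therefore come from cells expanded in the same activating cytokines, and none shows ILC2s as they are in the tissue. The methods give an age of 6 to 8 weeks for C57BL/6J mice, but their study design section gives a range that reaches older ages. They name both sexes in one sentence and males alone for C57BL/6J in another. The exact age and the sex behind these libraries are therefore unclear. The labels do not say whether libraries came from separate mice or cultures, so p-values measure only the spread between libraries, which may be technical.

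Library totals were 26564059 to 35838342 counts in 3 libraries and 244165712 in DCA replicate 2. Levels are given as CPM, counts scaled to a common library size, after TMM normalization, which aligns the bulk of the genes between libraries. Where a gene had 0 counts, its level may be as high as 3 counts, or 0.0821 to 0.115 CPM in those 3 libraries and 0.0125 CPM in DCA replicate 2; these limits cover counting error only, and they would be higher if a read pair gave 2 counts. The cells carried ILC2 markers. All 12 ILC2 markers examined had a mean of at least 1 CPM, although Thy1 was at 4.24 CPM in DCA replicate 1 and at most 0.0547 CPM elsewhere. Their summed level was 15524 to 19943 CPM, of which Il5 was 7727 to 12334 CPM and Icos 3323 to 3586 CPM. Il17rb, by contrast, was at 31.4 to 39.0 CPM. Of 9 T cell markers, 3 reached a mean of 1 CPM (Cd3g, Cd28, and Cd247). Cd4 and Cd8a were at 0 in every library, and Cd3e was at 1.91, 0, 0, and 0.345 CPM. The list summed to 95.1 and 117 CPM with vehicle, against 172 and 107 CPM with DCA. Most of it was Cd28, at 67.5 and 90.2 CPM with vehicle, against 150 and 87.4 CPM with DCA. Summed levels of 6 ILC3 markers were 0 and 0 CPM with vehicle, against 3.53 and 0.778 CPM with DCA, all of it Il17a and Il17f. For 7 macrophage and monocyte markers they were 7.31 to 24.7 CPM. Almost all of that was Cd68, which was lower in both DCA libraries (unadjusted p = 0.0381, edgeR). Of the ILC1 and NK cell markers, Gzma alone was high, at 374 and 1935 CPM with vehicle, against 584 and 730.0 CPM with DCA, and Klrb1c and Ncr1 were at 0. Sums were 37.8 to 55.2 CPM for B cell, 7.74 to 13.5 CPM for epithelial, and 159 to 359 CPM for mast cell and basophil markers, the last almost all Kit. The part of these other cell types in the results was not tested. In bulk libraries, fewer cells expressing a gene and less RNA per cell cannot be told apart.

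Lineage transcription factors bind regulatory DNA and set which genes a lymphocyte keeps open. GATA3, a zinc finger protein, is the defining factor of type 2 lymphocytes and is needed to form and maintain ILC2s. ID2 has a helix-loop-helix fold but no DNA-binding region, and it holds E proteins away from DNA, which all innate lymphoid cells require. TCF1 (encoded by Tcf7), PLZF (Zbtb16), and TOX act early, in the precursors of innate lymphoid cells, whereas the nuclear receptor RORα, BCL11B, and GFI1 support the ILC2 fate, and ETS1 and c-MAF shape lymphocyte development and cytokine genes.

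Id2 and Gata3 were the members with the most RNA, and so the DNA just before their starts is shown. The sequences are the 250 bases before a RefSeq start on GRCm38.p6, both on the minus strand, read 5′ to 3′; the Gata3 start lies inside the annotated gene. That of Id2 lies at chr12:25096093-25096342 and that of Gata3 at chr2:9878601-9878850. Capitals mark the E box CANNTG, the letters that E proteins bind, and GATAA on either strand, a core that GATA factors bind; these letters do not overlap in either sequence.
Id2: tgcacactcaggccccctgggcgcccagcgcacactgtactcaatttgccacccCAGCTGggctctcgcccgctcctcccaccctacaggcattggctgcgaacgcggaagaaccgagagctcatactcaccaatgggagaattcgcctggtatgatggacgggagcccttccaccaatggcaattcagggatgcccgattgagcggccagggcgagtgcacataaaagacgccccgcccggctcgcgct
Gata3: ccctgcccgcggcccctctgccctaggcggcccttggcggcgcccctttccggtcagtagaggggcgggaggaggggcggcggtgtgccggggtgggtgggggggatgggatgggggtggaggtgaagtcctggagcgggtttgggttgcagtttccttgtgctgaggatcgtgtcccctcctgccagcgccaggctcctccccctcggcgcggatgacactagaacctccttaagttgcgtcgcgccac
The Id2 sequence held 1 E box and no GATAA, and the Gata3 sequence held neither. Of 32851 windows of this length in the promoter table, 66.2% held CANNTG and 22.6% held GATAA on either strand. The table held 8 windows for 6 of the members (Gata3, Rora, Id2, Tcf7, Bcl11b, and Gfi1); 4 of these held CANNTG and 1, of Tcf7, held GATAA. Their GC content ran from 44.8% to 76%, against a median of 52.4% over all windows. These matches describe the letters only.

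Id2 (Entrez gene 15902, chromosome 12, 25093799 to 25096092 on GRCm38) was at 2964 and 2814 CPM with vehicle, against 2932 and 3105 CPM with DCA. The 4 values were close together, the replicates of a treatment differed by at most 1.06-fold, and the treatments overlapped. Its log2 fold change, DCA over vehicle, was 0.06 (standard error 0.056, taken from how log2(CPM + 1) varied within treatments), with a 95% interval of -0.36 to 0.48 from edgeR's quasi-likelihood fit. It was the most evenly measured of the members.

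Gata3 (Entrez gene 14462, chromosome 2, 9857078 to 9887953) was at 840 and 657 CPM with vehicle, against 600 and 824 CPM with DCA. Each treatment had 1 higher and 1 lower library, at similar levels, and the treatments overlapped. The means were 749 ± 130 CPM (SD, n = 2) with vehicle and 712 ± 158 CPM (SD, n = 2) with DCA. The log2 fold change was -0.07 (standard error 0.29, 95% interval -0.68 to 0.54). The interval thus spans from 0.624-fold to 1.45-fold, and these libraries do not exclude a change within it.

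**Figure D1:**
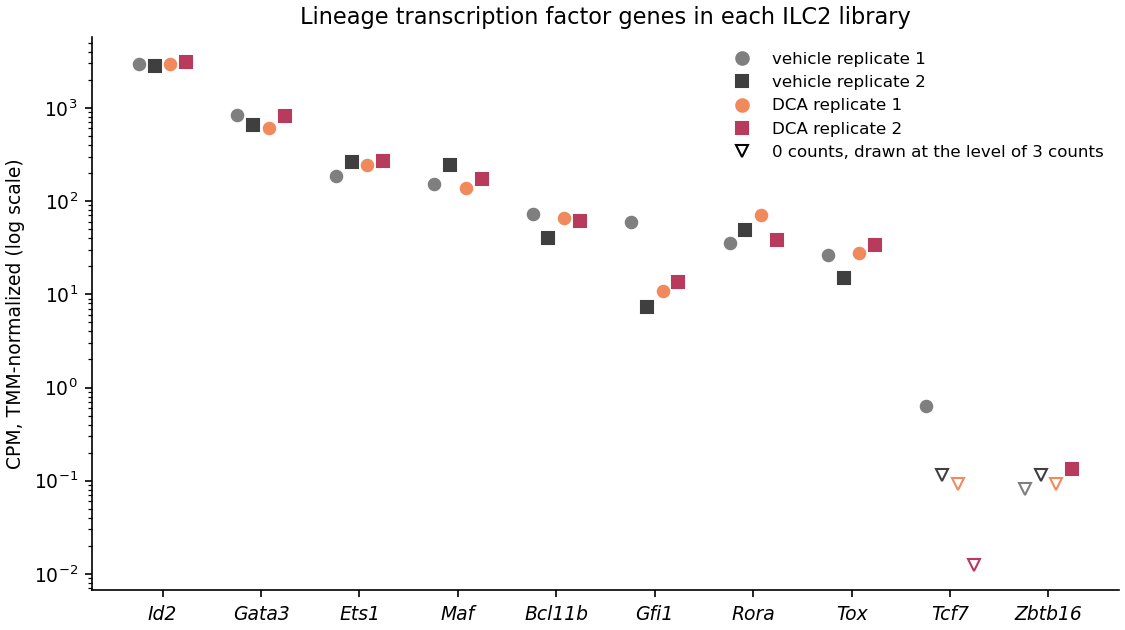
CPM of the 10 lineage transcription factor genes in each of the 4 libraries, on a log scale, ordered by level per kb of exon; circles and squares are replicates 1 and 2, grey for vehicle and red or orange for DCA, and open triangles mark 0 counts drawn at the level of 3 counts. Id2 and Gata3 lie highest, Gfi1 has 1 library far above the other 3, and Tcf7 and Zbtb16 each have counts in 1 library.

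To compare genes with each other, CPM was divided by the length of the gene's merged exons in GENCODE M21. On this scale, over the 4 libraries, Id2 was at 1212 ± 49.2 CPM per kb (SD, n = 4) and Gata3 at 184 ± 30.2 CPM per kb (SD, n = 4), a 6.6-fold gap with no overlap between libraries. Ets1 followed at 28.5 ± 4.57 CPM per kb and Maf at 21.6 ± 5.77 CPM per kb (SD, n = 4 each), with overlapping libraries, and Gata3 was 6.45-fold above Ets1. Bcl11b, Gfi1, Rora, and Tox had means of 7.37, 7.18, 3.67, and 3.39 CPM per kb, and each overlapped its neighbour in this order. Tcf7, at 0.0599 CPM per kb, and Zbtb16, at 0.0063 CPM per kb, with libraries at 0 counts taken as 0, lay below Tox in every library. With the longest annotated transcript as the length, the leading 4 kept their places and Gfi1 came before Bcl11b and Tox before Rora. The merged exons of Id2, 2438 bases, exceed its RefSeq span from 25093799 to 25096092, but its longest transcript, 1969 bases, does not. With that transcript as the length Id2 was at 1500 CPM per kb. Both lengths of Maf, 8241 and 6360 bases, exceed its RefSeq span from 115703253 to 115706894. The annotation used for counting is not given, so the place of Maf beside Ets1 is uncertain.

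The question put to these libraries was whether DCA changed the RNA of the factors that define ILC2s. The edgeR quasi-likelihood fit covered the 11184 genes whose mean reached 1 CPM, which include 8 of the 10 members. No member passed an adjusted p of 0.05, and 0% of all genes tested passed it. Among the 8 members tested, 0 had an unadjusted p under 0.05, against 4.27% of all genes tested, and each had an adjusted p of 0.999 (edgeR, Benjamini-Hochberg). DESeq2 called 0 of the 8 members and 1.13% of all genes at an adjusted p of 0.05. With no filter on low counts edgeR called 0 of the 10 members and 0.203% of 17706 genes, and 1 member, Gfi1, was below 0.05 unadjusted. The members had a median log2 fold change of 0.12, 5 above 0 and 3 below, against 0.008 over all genes tested. In size alone their median log2 fold change was 0.28, and that of all genes was 0.38. For 1 of the 8 members, Tox, the libraries of the treatments did not overlap, a state found for 33.3% of all genes tested.

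**Figure D2:**
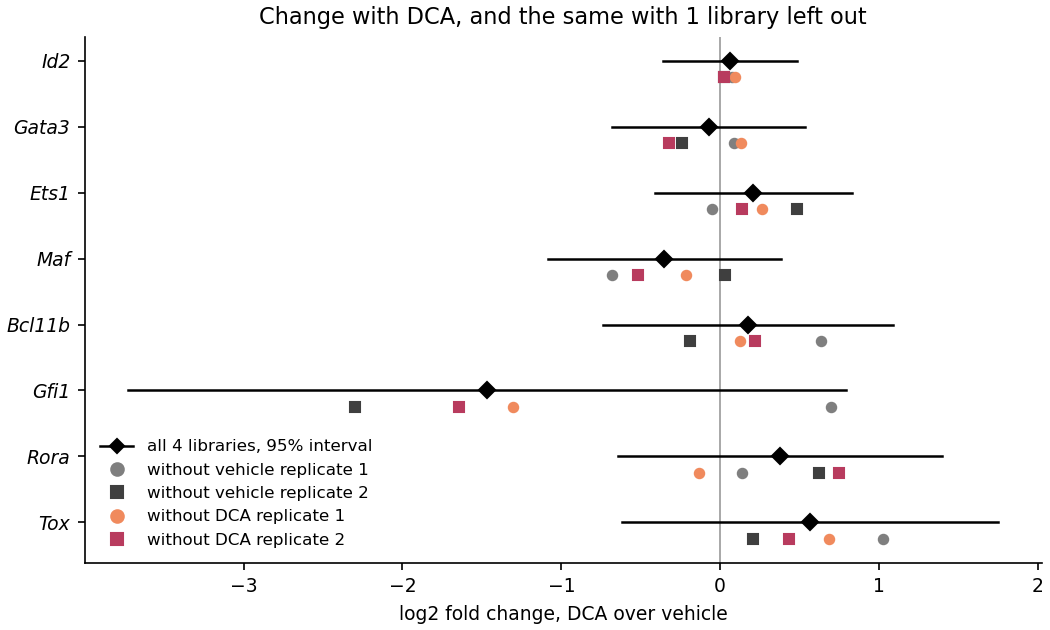
Log2 fold change, DCA over vehicle, of the 8 members tested (diamonds) with the 95% interval from edgeR's quasi-likelihood fit (lines), and below each the value when 1 library is left out. Every interval spans 0, and the Gfi1 value moves from -1.47 to 0.70 when vehicle replicate 1 is left out.

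Rora (Entrez gene 19883, chromosome 9, 68653404 to 69388246), which encodes RORα, was at 35.2 and 48.3 CPM with vehicle, against 70.1 and 38.4 CPM with DCA. Only DCA replicate 1 stood above the vehicle libraries. Its log2 fold change of 0.38 (standard error 0.48, 95% interval -0.65 to 1.40) was -0.14 without DCA replicate 1.

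Ets1 (Entrez gene 23871, chromosome 9, 32636241 to 32757820), which encodes the founding member of the ETS family, was at 185 and 263 CPM with vehicle, against 246 and 271 CPM with DCA. Vehicle replicate 1 was the lowest library and the other 3 lay close together. The log2 fold change was 0.21 (standard error 0.26, 95% interval -0.41 to 0.83), and it was -0.049 without vehicle replicate 1.

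Maf (Entrez gene 17132, chromosome 8, 115703253 to 115706894), which encodes the bZIP factor c-MAF, was at 153 and 246 CPM with vehicle, against 139 and 174 CPM with DCA. Vehicle replicate 2 was the highest library, and the other vehicle library lay between the DCA libraries. As a log2 fold change this was -0.35 (standard error 0.37, 95% interval -1.09 to 0.38), and 0.030 without vehicle replicate 2.

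Bcl11b (Entrez gene 58208, chromosome 12, 107910403 to 108004145), a zinc finger gene shared by T cells and ILC2s, was at 72.2 and 40.0 CPM with vehicle, against 65.5 and 61.3 CPM with DCA. Both DCA libraries lay between the vehicle libraries. DCA over vehicle, the log2 fold change was 0.18 (standard error 0.42, 95% interval -0.74 to 1.09), or -0.19 without vehicle replicate 2.

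Tox (Entrez gene 252838, chromosome 4, 6686353 to 6991557), which encodes an HMG-box protein, was at 26.7 and 14.9 CPM with vehicle, against 28.0 and 33.6 CPM with DCA. The DCA libraries both lay above the vehicle libraries, DCA replicate 1 only just so (two-sided exact permutation test, p = 0.333, the smallest that 2 libraries against 2 allow). Its log2 fold change of 0.57 (standard error 0.42, 95% interval -0.62 to 1.75) had an edgeR p of 0.287, unadjusted, and 35.3% of all genes tested had a value at least as large in size. T cells also express Tox, Bcl11b, Ets1, Maf, and Tcf7, and the summed T cell markers given above overlapped between treatments; their part in these values was not tested. The Tox value was 0.21 without vehicle replicate 2 and 1.02 without vehicle replicate 1.

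Gfi1 (Entrez gene 14581, chromosome 5, 107716655 to 107725805), which encodes a transcriptional repressor, had the largest value in size among the members and the widest spread. It was at 59.9 and 7.34 CPM with vehicle, against 10.7 and 13.6 CPM with DCA, from 2190, 192, 347, and 3259 counts. Vehicle replicate 1 stood alone, 8.16-fold above vehicle replicate 2 in CPM. On the scale of log2(CPM + 1), where the gap was 2.87, 4.44% of all genes tested differed at least as much between the vehicle libraries. The log2 fold change of -1.47 (standard error 1.44, 95% interval -3.73 to 0.79, unadjusted p = 0.164, edgeR) became 0.70 without vehicle replicate 1 and -2.30 without vehicle replicate 2 (unadjusted p = 0.00102, adjusted p = 0.253, edgeR). With no filter edgeR gave an unadjusted p of 0.0213 (adjusted, 0.807), and limma on log2(CPM + 1) gave a log2 fold change of -0.79.

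Tcf7 (Entrez gene 21414, chromosome 11, 52246527 to 52283383) and Zbtb16 (Entrez gene 235320, chromosome 9, 48651797 to 48836225), which mark precursors of innate lymphoid cells, were at or near 0 in every library. Tcf7 had 23 counts in vehicle replicate 1, or 0.629 CPM, and 0 in the other 3 libraries. Zbtb16 had 32 counts in DCA replicate 2, or 0.133 CPM, and 0 in the other 3, whose limits of 0.0821 to 0.115 CPM come close to that level. Each was therefore found in 1 library only, and no fold is given. Neither reached a mean of 1 CPM, and without a filter their unadjusted p was 0.161 and 0.355 (edgeR, quasi-likelihood), with an adjusted p of 0.954 for each.

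Apart from position (Id2 and Bcl11b lie on chromosome 12, and Rora, Ets1, and Zbtb16 on chromosome 9), the members varied between replicates about as other genes did with vehicle and less with DCA, a difference that was not tested. The median difference between replicates, on the log2 scale, was 0.59 between the vehicle libraries and 0.28 between the DCA libraries for the 8 members tested, against 0.56 and 0.41 for all genes tested. The counting is not stated to use strand, and exons on the other strand cover 0.627% (Rora) to 5.34% (Maf) of the exons of Gata3, Gfi1, Maf, Rora, and Tox. On the same strand, exons of 9230102O04Rik, itself among the genes counted, cover 1.94% of the Gata3 exons. Reads in these overlaps cannot be assigned with certainty.

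Each factor belongs to a family, and its 28 relatives were examined to see which family member the cells used. Gata3 was the sole GATA gene with more than 6 counts in any library and made up 100% of the family's level per kb in 3 libraries and 99.97% in vehicle replicate 1. Id2 held at least 99.2% of the ID family, in which Id3 was next at 3.74 CPM per kb. Bcl11a and Gfi1b, the relatives of Bcl11b and Gfi1, had 0 counts throughout.

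The TOX, TCF, and ETS families were different. Tox2, at 36.3 and 17.5 CPM per kb with vehicle and 51.1 and 28.0 with DCA, was above Tox in every library, and Tox held only 5.27% to 10.3% of its family. Lef1, the relative of Tcf7 with the highest mean, was at 0.778 and 0.683 CPM per kb with vehicle and 3.34 and 0.349 with DCA, so that 1 DCA library was above and the other below both vehicle libraries. The T cell markers, among which Lef1 is not counted, had their highest sum in that same library, DCA replicate 1, at 172 CPM. Of this sum Cd28 was 150 CPM and Cd3g 21.3 CPM, and Cd3e was at 0. The part of T cells in the Lef1 value was not tested. Fli1, at 5.55 to 17.8 CPM per kb, left Ets1 with 53.8% to 78.7% of the ETS genes examined. Among MAF genes, Mafg had the highest mean after Maf, at 5.07 CPM per kb. Zbtb32, a relative of Zbtb16, was at 16.6 CPM per kb.

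**Figure D3:**
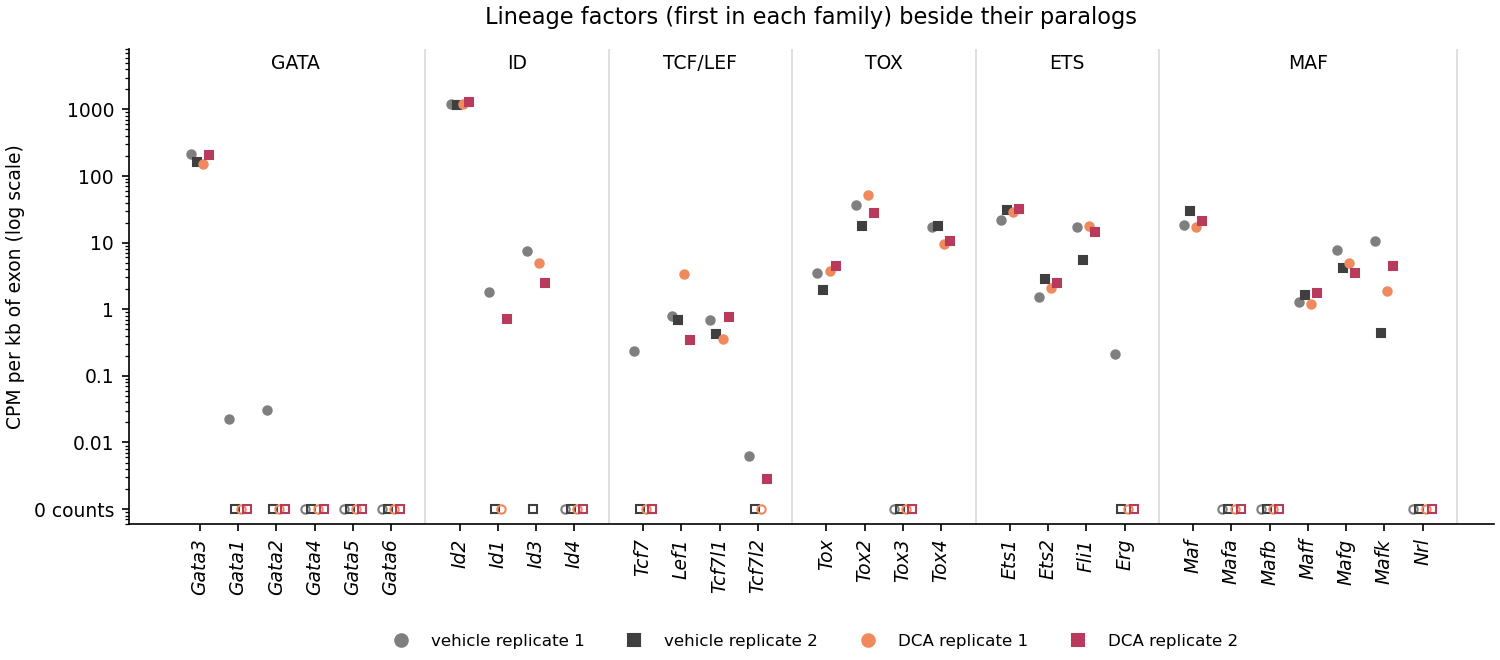
CPM per kb of exon, on a log scale, of 6 members and their paralogs in each of the 4 libraries, with open symbols for 0 counts. Gata3 and Id2 stand far above their relatives, whereas Tox lies below Tox2 and Tox4 in every library.

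Of the 28 relatives, 11 reached a mean of 1 CPM and another 11 had 0 counts in every library. Of the 11 tested, 0 passed an adjusted p of 0.05 with edgeR or DESeq2, and 1, Tox4, was below 0.05 unadjusted with edgeR (4.27% of all genes tested were). Tox4, a widely expressed HMG-box gene, was at 119 and 123 CPM with vehicle, against 66.2 and 72.9 CPM with DCA, lower in both DCA libraries. Its log2 fold change was -0.79 (95% interval -1.41 to -0.17, unadjusted p = 0.0200, adjusted p = 0.999, edgeR). The median over the 11 genes was 0.03, with 6 values above 0 and 5 below, and with 1 library left out it ranged from -0.31 without DCA replicate 1 to 0.38 without vehicle replicate 1. With no filter on low counts it was -0.48 over 17 genes.

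Partners of the members included the E proteins that ID2 binds. Of 12 partner genes, 11 were tested, 0 passed an adjusted p of 0.05 with edgeR or DESeq2, and 3 were below 0.05 unadjusted with edgeR, against 4.27% of all genes tested. The libraries of these 3, and of Tcf12, did not overlap between treatments, as for 33.3% of all genes. The median over the 11 was -0.025, with 5 values above 0 and 6 below. Tcf3, which encodes the E proteins E12 and E47, was at 59.5 and 61.2 CPM with vehicle, against 24.6 and 21.3 CPM with DCA. The DCA libraries lay well below the vehicle libraries, with little spread in either treatment. The log2 fold change was -1.39 (standard error 0.10, 95% interval -2.23 to -0.55), with edgeR giving an unadjusted p of 0.00644 (adjusted, 0.999) and DESeq2 an adjusted p of 0.0840. Without each library in turn it ranged from -1.51 to -1.29.

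Tcf4, which encodes the E protein E2-2, was at 7.60 and 2.64 CPM with vehicle, against 22.7 and 22.0 CPM with DCA. Here the DCA libraries lay above, and the vehicle libraries differed 2.88-fold. The log2 fold change was 2.12 (standard error 0.62, 95% interval 0.30 to 3.95, unadjusted p = 0.0290, adjusted p = 0.999, edgeR), and it ranged from 1.55 to 3.05 with 1 library left out. Tcf12, which encodes HEB, was at 24.8 and 26.9 CPM with vehicle, against 30.4 and 37.6 CPM with DCA, or 0.40 as a log2 fold change (95% interval -0.57 to 1.36). The other partner below an unadjusted p of 0.05 was Cul3, a ubiquitin ligase scaffold that binds PLZF, at 80.1 and 98.1 CPM with vehicle, against 40.8 and 50.9 CPM with DCA (log2 fold change -0.96, unadjusted p = 0.0197, edgeR). Ncor1, a corepressor and the partner with the highest mean, was at 163 and 180 CPM with vehicle, against 145 and 165 CPM with DCA.

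Per kb of exon, the 3 E protein genes summed to 16.6 and 17.0 CPM per kb with vehicle and to 8.89 and 8.51 with DCA. Tcf3 made up 88.7% and 89.2% of that sum with vehicle and 68.6% and 62.1% with DCA. The sum and these shares depend on the lengths. Merged exons cover 27382 bases for Tcf4 and 15529 for Tcf12, against longest transcripts of 8577 and 6299 bases. Not divided by length, Tcf12 was above Tcf3 in both DCA libraries, at 30.4 and 37.6 CPM against 24.6 and 21.3 CPM. Within each library, Id2 was 73.2 and 68.0 times the summed E protein genes with vehicle and 135 and 150 times with DCA, so both DCA ratios were above both vehicle ratios (two-sided exact permutation test, p = 0.333, the smallest possible). The log2 difference of the ratio, 1.01, came with a summed E protein level that was lower with DCA (-0.95 on the log2 scale) and an Id2 value of 0.06. The log2 difference was 0.73 with the longest transcript as the length, an alternative chosen after seeing the data, and 0.27 when CPM was not divided by length.

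**Figure D4:**
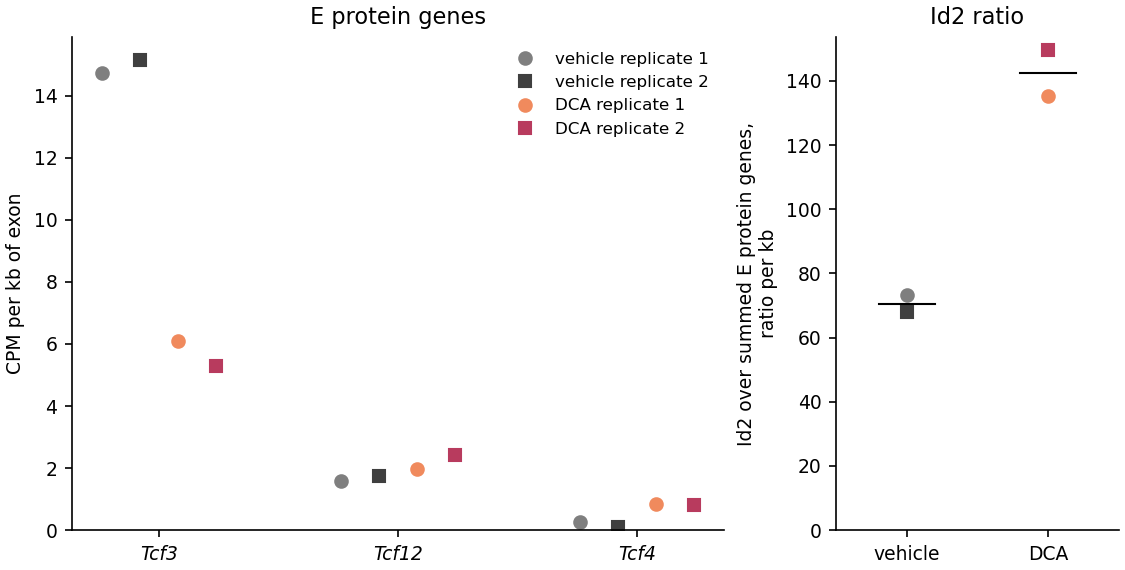
Left, CPM per kb of exon of the E protein genes Tcf3, Tcf12, and Tcf4 in each of the 4 libraries; right, the ratio of Id2 to their sum, with bars at the mean of each treatment. Tcf3 lies between 14.7 and 15.1 with vehicle and between 5.28 and 6.10 with DCA, and the ratio is 68.0 and 73.2 with vehicle and 135 and 150 with DCA.

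Among 20 other regulators of ILC development and activation, 18 were tested, 0 passed an adjusted p of 0.05 with edgeR or DESeq2, and 2 were below 0.05 unadjusted with edgeR (4.27% over all genes). Nfil3, which encodes a bZIP factor needed early in the ILC lineage, was at 101 and 103 CPM with vehicle, against 221 and 139 CPM with DCA. Both DCA libraries were higher, and they differed 1.59-fold from each other. Its log2 fold change was 0.82 (95% interval 0.09 to 1.54, unadjusted p = 0.0326, edgeR), or 0.44 without DCA replicate 1. Rbpj, the DNA-binding partner of Notch, was at 156 and 161 CPM with vehicle, against 98.4 and 104 CPM with DCA, or -0.65 as a log2 fold change (95% interval -1.22 to -0.08, unadjusted p = 0.0318, edgeR). Batf, an AP-1 factor with the highest mean of this list, was at 321 and 323 CPM with vehicle, against 254 and 256 CPM with DCA, with an unadjusted p of 0.151 (edgeR). Over the list the median log2 fold change was -0.23, 4 values above 0 and 14 below, against 5672 above and 5512 below over all genes tested. That median was 0.016 without vehicle replicate 1. The libraries did not overlap between treatments for 2 genes of the list that were higher with DCA and 5 that were lower. Such a state was found for 33.3% of all genes tested.

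Of 16 factors that define other lineages, 13 stayed below a mean of 1 CPM, 3 of them at 0 counts in every library. The other 3 were Zbtb7b, Mitf, and Irf8, the highest, at 5.06 and 5.85 CPM with vehicle, against 11.4 and 2.66 CPM with DCA. Tbx21 and Eomes, which define ILC1s and NK cells, had at most 14 counts in any library (0.383 CPM, Tbx21 in vehicle replicate 1). Foxp3, the factor of regulatory T cells, had 65 counts in DCA replicate 2, the deepest library, or 0.270 CPM, and 0 elsewhere. None of the 3 tested had an unadjusted p under 0.05 (edgeR), and none passed an adjusted p of 0.05 with DESeq2.

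Gata3 itself is known to maintain Il5, Il13, Il1rl1, Il2ra, and Klrg1 in type 2 lymphocytes. Beside the overlapping Gata3 values, these 5 genes had log2 fold changes on both sides of 0, 3 above and 2 below, with a median log2 fold change of 0.09, which moved to 0.45 when DCA replicate 1 was left out and to -0.51 when DCA replicate 2 was. Il1rl1, which encodes the IL-33 receptor chain ST2, was at 833 and 877 CPM with vehicle, against 599 and 533 CPM with DCA (log2 fold change -0.60, 95% interval -1.08 to -0.11). With edgeR 0 of the 5 passed an adjusted p of 0.05 and 3, Il1rl1, Il2ra, and Klrg1, were below 0.05 unadjusted, against 4.27% of all genes. DESeq2 called 1 of the 5, Klrg1, a receptor used in the sort, with an adjusted p of 0.0453 against 0.999 with edgeR, and it called 1.13% of all genes. Klrg1 was at 688 and 678 CPM with vehicle, against 463 and 356 CPM with DCA (log2 fold change -0.74). Il2ra, the high-affinity chain of the IL-2 receptor, was at 1075 and 1231 CPM with vehicle, against 1615 and 1585 CPM with DCA (log2 fold change 0.47). Il5 had the highest mean of the list, at 8868 and 7727 CPM with vehicle, against 9963 and 12334 CPM with DCA (unadjusted p = 0.0603, edgeR).

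Over the 4 libraries, the genes whose log2(CPM + 1) followed Gata3 most closely were Tmem201, P2ry14, and Cep170, each with a Pearson correlation of 0.999. As 283 genes had a correlation over 0.95 with Gata3 across these 4 points, the likeness is a description of a pattern, with vehicle replicate 1 and DCA replicate 2 high and the others low. The 2 high libraries were also the deepest, and the part of depth in the pattern was not tested. P2ry14 showed it at 77.6 and 25.4 CPM with vehicle, against 15.9 and 67.0 CPM with DCA.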

How the data were processed

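RNA-Seq libraries of cultured ILC2s (2 vehicle, 2 DCA) were assigned to treatments by their titles. The deposited values are whole-number counts, and not the FPKM that the table's name mentions. The authors made full-length cDNA (SMART-Seq HT), prepared Nextera XT paired-end libraries, trimmed with Cutadapt 1.9, and used hisat2 2.2.1 with mm10. The counting tool, its annotation and its strand setting are not given in the sources used here. Symbols were missing for 1275 rows, which were kept.

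Treatments were compared over every gene whose mean reached 1 CPM by edgeR 4.0.16 (TMM, quasi-likelihood test, two-sided, Benjamini-Hochberg) in R 4.3.3, with DESeq2 1.42.0, limma 3.58.1, other scalings and filters, the replicate number as a block, and each library left out as alternatives. The 95% intervals came from the fitted value and its F statistic. The fitting code was tested on simulated counts with a spread set in advance. That does not show how it performs at the spread of these libraries. Exon lengths came from GENCODE M21 and positions from RefSeq (GRCm38). The labels do not say whether equal replicate numbers mark a shared source. All members are named and, from the lists, the gene with the highest mean per list and family, genes with an unadjusted p under 0.05 and libraries that do not overlap, and the 3 genes most correlated with Gata3. Other genes named (such as Tcf12, Foxp3, Myb, and single marker genes) were chosen after their values were seen. The members and lists were chosen with earlier results of these data known.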

Additional observations from a re-analysis of the deposited data

How the results depend on the processing

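Of the 8 members tested, 0 passed an adjusted p of 0.05 under any of the 13 alternatives (10 members without a filter). The number of all genes passing it, 0 with edgeR and a filter at 1 CPM, was 126 with DESeq2, 36 without a filter, and 0 to 28 with 1 library left out (28 without vehicle replicate 1). The median log2 fold change of the members, 0.12, ranged from 0.028 (without vehicle replicate 2) to 0.11 with 1 library left out, where the lone library is assumed to vary like the other treatment. In those fits Gata3 ran from -0.32 to 0.13 on the log2 scale, and the others from -0.14 to 0.75 for Rora, from -0.19 to 0.64 for Bcl11b, from -0.049 to 0.48 for Ets1, from -2.30 to 0.70 for Gfi1, and from -0.68 to 0.030 for Maf. That of Id2 was -0.022 with quantile normalization. Tox was above 0 under every alternative listed here, and it was the only 1 of the 8. The log2 difference of the Id2 to E protein ratio, 1.01, was 0.27 without division by length and 0.73 with the longest transcript, and ranged from 0.94 to 1.08 with 1 library left out. The cause was not tested.

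The labels do not say whether libraries with the same replicate number share a source. Such libraries deviated from their treatment means with a correlation of 0.0197 across genes. With 2 libraries per treatment, this value cannot show whether they are paired. With the replicate block the members had a median log2 fold change of 0.15, Gfi1 was at -0.80, and 0 genes passed an adjusted p of 0.05. With 2 libraries per treatment, changes within the 95% intervals are not excluded. These intervals ran from -0.36 to 0.48 on the log2 scale for Id2 and from -3.73 to 0.79 for Gfi1.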

Other observations

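Several regulators outside the 10 members were present in 1 library of a treatment and nearly missing from the other. Myb, a factor of lymphoid progenitors, was at 0.848 and 39.5 CPM with vehicle, against 0.186 and 6.63 CPM with DCA. Mafk, a small MAF protein gene, was at 41.1 and 1.72 CPM with vehicle, against 7.43 and 17.2 CPM with DCA, and Id3 was at 13.4 and 0 CPM with vehicle, against 8.98 and 4.39 CPM with DCA. Such gaps were more common between the vehicle libraries. On the scale of log2(CPM + 1), 419 of the 11184 genes tested (3.75%) differed by more than 8-fold between the vehicle libraries and 56 (0.501%) between the DCA libraries, and 29% and 18.2% differed by more than 2-fold. Among the 10 members, Gfi1 was the gene whose vehicle libraries were furthest apart.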
